A study of Mus musculus with 12 samples.

Results

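The 8 genes followed were Hmgcs1, Mvd, Idi1, Fdps, Sqle and Cyp51, which encode enzymes of cholesterol synthesis, and Insig1 and Srebf2, which encode proteins that control the pathway. They were taken by name, with every probe annotated to those names. Of these 8 genes, 7 had an annotated probe, 14 of the 45281 probes on the array in all, and Hmgcs1 was not analysed here beyond its promoter. Detection at p under 0.05 on at least 2 of the 12 arrays was met by 12 of the 14 probes, and each of the 7 genes was then read from its brightest probe, among 11470 genes tested. A further Sqle probe (ILMN_2573600) and a further Insig1 probe (ILMN_2620965) were detected on 0 of 12 arrays. No lipoprotein receptor was among these genes, so genes of sterol uptake were taken from a longer list.

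RNA came from B16 cells, an established mouse melanoma line that makes melanin in culture, and was hybridised to 12 Illumina bead arrays. There was 1 array of set 1 and 1 of set 2 on each of days 0, 4, 8, 12, 16 and 20, and the sets were consecutive cycles per the design text. Days 4, 8 and 12 carried the label pigmented and days 0, 16 and 20 the label depigmented. Per the labels' protocols, all cells grew in DMEM with fetal calf serum. A sparse seeding (100 cells per cm2) was collected after 4, 8 and 12 days, and a dense replating of day 12 (10000 cells per cm2) was collected on days 16 and 20. Between days of different labels, the pigmentation label, time in culture and seeding therefore cannot be told apart. By that protocol days 4, 8 and 12 shared a label and a seeding, as did days 16 and 20, and differed in time. A separate density label went against that protocol. It read 10000 cells per cm2 on day 8, on day 20 and in set 1 of days 0 and 12, and 100 on all other arrays. No genotype, agent or clone was labelled, and the 2 arrays of a day came from different cycles of 1 line. How far those cycles were separate cultures was not stated further, so p-values measure the spread between 2 cycles and may include technical spread.

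Cells build cholesterol from acetyl-CoA by way of mevalonate, the isoprenoid diphosphates, farnesyl diphosphate, squalene and lanosterol. When the endoplasmic reticulum membrane is poor in sterol, SCAP carries the SREBP precursors to the Golgi, where proteases free a transcription factor that binds sterol regulatory elements in promoters of this pathway. When sterol is ample, INSIG proteins hold SCAP in the endoplasmic reticulum, and in many mammalian cells the genes of the pathway are known to be transcribed together.

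Promoter windows of 300 bases, from 250 before to 50 after the gene's start, were listed in RefSeq (GRCm38.p6) for 6 of the 8 genes and were read for 3 motifs on both strands. The windows below are those of Hmgcs1, which alone held the sterol regulatory element, of Mvd and Cyp51, whose brightest probes fell most from day 8 to day 12, and of Insig1, whose probes differed from each other. Each runs 5′ to 3′ on the gene's strand: Hmgcs1 on chr13:119690101-119690400 (plus), Mvd on chr8:122443373-122443672 (minus), Cyp51 on chr5:4104648-4104947 (minus) and Insig1 on chr5:28071162-28071461 (plus). Capitals mark TCACNCCAC (the sterol regulatory element), CCAAT (the NF-Y box, read as ATTGG on the other strand) and GGGCGG (the Sp1 box, CCGCCC on the other strand).
Hmgcs1: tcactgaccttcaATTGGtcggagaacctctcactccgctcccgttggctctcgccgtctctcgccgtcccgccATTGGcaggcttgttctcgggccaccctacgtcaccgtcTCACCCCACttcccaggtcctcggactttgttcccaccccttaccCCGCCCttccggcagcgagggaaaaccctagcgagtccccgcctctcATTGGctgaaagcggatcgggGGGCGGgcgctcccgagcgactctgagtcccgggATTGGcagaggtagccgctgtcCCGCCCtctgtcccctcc
Mvd: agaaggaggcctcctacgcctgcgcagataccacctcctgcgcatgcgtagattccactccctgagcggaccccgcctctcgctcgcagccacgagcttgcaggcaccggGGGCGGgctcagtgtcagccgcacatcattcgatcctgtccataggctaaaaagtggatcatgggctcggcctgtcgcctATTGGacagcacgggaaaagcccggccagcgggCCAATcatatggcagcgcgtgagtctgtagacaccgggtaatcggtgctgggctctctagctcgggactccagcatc
Cyp51: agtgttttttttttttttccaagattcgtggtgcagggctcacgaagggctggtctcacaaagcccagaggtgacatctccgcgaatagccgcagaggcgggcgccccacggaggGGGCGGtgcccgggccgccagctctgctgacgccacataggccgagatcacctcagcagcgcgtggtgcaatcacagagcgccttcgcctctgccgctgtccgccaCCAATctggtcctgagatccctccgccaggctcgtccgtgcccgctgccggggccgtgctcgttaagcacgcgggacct
Insig1: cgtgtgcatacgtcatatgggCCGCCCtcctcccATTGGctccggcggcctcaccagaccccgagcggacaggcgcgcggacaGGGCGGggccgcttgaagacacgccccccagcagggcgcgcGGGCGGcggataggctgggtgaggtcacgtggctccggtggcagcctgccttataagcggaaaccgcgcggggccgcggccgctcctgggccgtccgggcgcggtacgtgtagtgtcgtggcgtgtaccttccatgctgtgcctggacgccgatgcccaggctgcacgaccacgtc
TCACNCCAC was in 1 of the 6 windows, against 1.24% of the 32851 promoter windows listed, and its match in Hmgcs1 began 137 bases before the start. CCAAT was in 6 of 6 windows, against 37.4% of all, and GGGCGG in 6 of 6, against 35.7%. None of these matches overlapped another. A match is a description of these letters and not evidence of a binding site, and where TCACNCCAC was absent this says only that the letters are not in the window. The windows of Idi1 and Srebf2 held no TCACNCCAC either, with 2 and 1 CCAAT matches and 1 and 5 GGGCGG matches.

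Mean signal per array lay between 269.9 and 440.8 and the detected probes between 18508 and 19780. Both arrays of each day had a correlation of 0.9953 to 0.9965 over genes, and arrays of day 4 correlated with those of day 8 at 0.9963 to 0.9967, within or above that range. All 8 melanocyte markers were measured, and the sum of their linear levels was 14071 to 14147 on day 20, 34629 to 39123 on day 0, 51466 to 56908 on days 12 and 16, and 73722 to 78654 on days 4 and 8. Markers of other cells were few: 3 of 8 fibroblast, 2 of 6 leukocyte, 1 of 4 keratinocyte and 1 of 4 endothelial markers passed the detection filter. Those that passed were Col1a1 (detected on 6 arrays), Pdgfra (8), Pdgfrb (7), Lyz2 (10), Fcer1g (9), Krt1 (6) and Vwf (7). Where a marker had several probes, the count is of the probe detected most often. Among the rest, Col1a2, Ptprc, Krt5, Krt14 and Cdh5 were detected on 0 arrays. The fibroblast sum was 67.3 to 74.6 on days 4 and 8, 94.9 to 107 on days 12 and 20, and 167 to 241 on days 0 and 16. The leukocyte sum was 112 to 127 on days 4 and 8, 72.1 to 90.2 on days 0, 12 and 16, and 45.7 on both arrays of day 20. The part of these differences in the results for the sterol genes was not tested. In bulk RNA, fewer cells of a kind and less RNA per cell cannot be told apart.

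By the brightest probes, the enzymes Idi1, Fdps, Sqle and Cyp51 rose on days 4 and 8 against day 0, and Mvd did not. All of these enzymes fell from day 8 to day 12 and rose from day 12 to day 16. On day 20 Mvd (-0.86), Idi1 (-0.45) and Fdps (-1.64) stood below day 0, whereas Sqle (0.26) and Cyp51 (1.63) stood above it. Over the 6 days 7 of 7 genes changed, but so did 84.7% of all genes, so that count is no result about them. In the brightest probes, the genes called shared 1 direction in each step from day 8 on, but not on day 4 against day 0. From day 8 to day 12, 6 of 7 genes fell and 0 rose, with a median log2 change of -1.70, while 53.4% of all genes changed (27.2% higher, 26.2% lower) with a median of -0.00. From day 12 to day 16, 7 of 7 rose, with a median of 1.34, while 40.4% of all genes changed (20.7% higher, 19.7% lower) with a median of 0.01. From day 16 to day 20, 6 of 7 fell and 0 rose, with a median of -0.63. Of all genes 65.0% changed there (29.9% higher, 35.0% lower), with a median of -0.05. The falls of Fdps, Insig1 and Srebf2 in that step were not called in their other detected probes. Of those probes, the second of Srebf2 rose (0.43, limma adjusted p = 0.00359). Neighbouring comparisons share the arrays of a day, so the fall to day 12 and the rise after it rest on the same 2 day 12 arrays. Changes are differences of log2 normalised signal with their standard error (SE) from limma, 2 arrays per day, called at a Benjamini-Hochberg adjusted p under 0.05 over all genes.

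**Figure D1:**
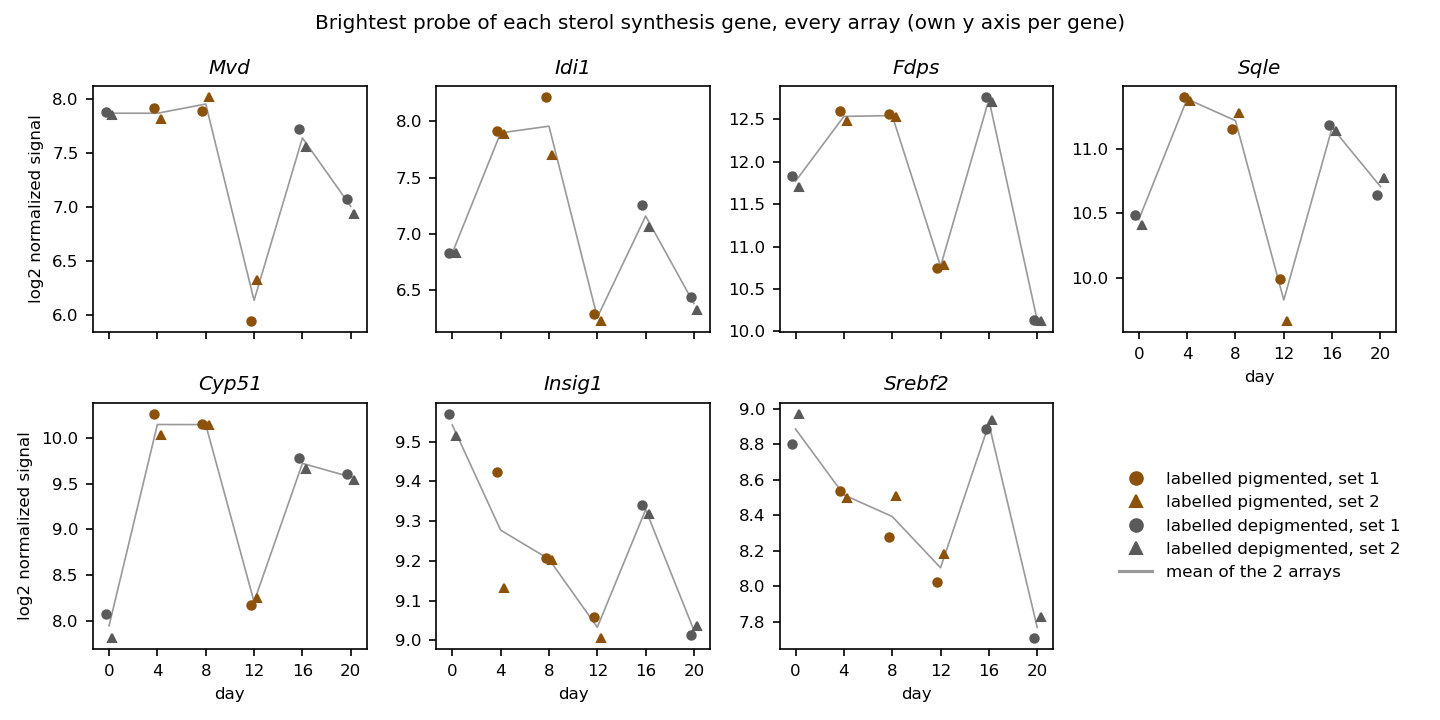
Log2 normalised signal of the brightest probe of each of the 7 measured genes (y axis, own scale for each gene) against day (x axis). Each marker is 1 array, circles for set 1 and triangles for set 2, brown for days labelled pigmented and grey for depigmented, and the line joins the mean of the 2 arrays. Mvd, Idi1, Fdps, Sqle and Cyp51 dip on day 12 and lie higher on day 16, and Fdps is lowest on day 20 at 10.1.

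Against day 0, 4 of 7 genes rose and 2 fell on day 4 (median 0.76), where 63.5% of all genes changed (29.5% higher, 34.0% lower, median -0.04). Day 8 gave the same counts, 4 higher and 2 lower (median 0.77), where 63.1% of all genes changed (29.3% higher, 33.9% lower, median -0.04). The 4 that rose were the enzymes Idi1, Fdps, Sqle and Cyp51, and the 2 that fell were the brightest probes of the control genes Insig1 and Srebf2. On day 12, 6 fell and 1 rose (median -0.62), with 52.3% of all genes changed (22.8% higher, 29.5% lower, median -0.06). On day 16, 3 rose and 0 fell (median 0.33), a count no larger than the 47.6% of all genes that changed (20.9% higher, 26.6% lower, median -0.05). With the set number as a block the count on day 16 was 5, adding Idi1 (0.33, adjusted p = 0.0446) and Insig1 (-0.21, adjusted p = 0.0414). On day 20, 2 rose and 5 fell (median -0.52), with 68.0% of all genes changed (29.3% higher, 38.7% lower, median -0.11). These 5 comparisons share the day 0 arrays.

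Between days 4 and 8 limma called 0 of 7 genes, at an unadjusted p under 0.05 also 0, and 0 of all 11470 genes (0%), of which 307 had an unadjusted p under 0.05. The pigmentation label separated none of these genes by their brightest probes. Between the 6 arrays labelled pigmented and the 6 labelled depigmented, limma called 0 of 7 (0 at an unadjusted p under 0.05), against 16.9% of all genes, with a median of 0.04. Idi1 gave 0.58 ± 0.36 (adjusted p = 0.268), Cyp51 0.42 ± 0.48 (adjusted p = 0.572), Fdps 0.40 ± 0.53 (adjusted p = 0.627) and Mvd -0.19 ± 0.38 (adjusted p = 0.76). Of the less bright probes, the second of Srebf2 was called lower in the pigmented arrays (-0.58 ± 0.17, limma adjusted p = 0.0379). Srebf2 by the mean of its probes was also called lower (-0.38, adjusted p = 0.0446). The spread in that model includes the spread between days, and both labels held days with high and days with low levels of the enzymes. It counted the 2 arrays of a day as separate replicates of a label, so its p-values can be too small and its calls too many. Day 12 was labelled pigmented and day 16 depigmented, and 7 of 7 genes rose between them.

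Mvd encodes mevalonate diphosphate decarboxylase, which makes isopentenyl diphosphate. Its log2 signal in sets 1 and 2 was 7.88 and 7.85 on day 0, 7.92 and 7.81 on day 4, 7.89 and 8.02 on day 8, 5.95 and 6.33 on day 12, 7.72 and 7.56 on day 16, and 7.07 and 6.94 on day 20. The day 12 arrays lay below all others, the day 20 arrays came next, then those of day 16, and the arrays of days 0, 4 and 8 overlapped. Mvd fell by 1.82 ± 0.13 from day 8 to day 12 (3.52-fold, limma adjusted p = 1.89e-10) and rose by 1.50 ± 0.13 from day 12 to day 16 (adjusted p = 8.18e-09). On day 4 its change from day 0 was 0.00 ± 0.13 (adjusted p = 0.997), and on day 8 it was 0.08 ± 0.13 (adjusted p = 0.591). In the order of its day means, days 8, 0, 4 and 16 could not be told apart from their neighbours, day 20 lay below day 16 (adjusted p = 0.000194) and day 12 below day 20 (adjusted p = 4.61e-06). Among Mvd, Idi1, Fdps, Sqle and Cyp51, Mvd is the one whose signal on days 4 and 8 passed no test against day 0.

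Idi1 encodes isopentenyl diphosphate isomerase, which interconverts the C5 building blocks of isoprenoids. Its log2 signal in sets 1 and 2 was 6.83 and 6.83 on day 0, 7.91 and 7.88 on day 4, 8.22 and 7.70 on day 8, 6.29 and 6.22 on day 12, 7.26 and 7.06 on day 16, and 6.44 and 6.32 on day 20. The arrays of days 4 and 8 were the highest and those of days 12 and 20 the lowest, with no overlap with the days between. It rose by 1.07 ± 0.15 on day 4 (adjusted p = 1.38e-06) and 1.13 ± 0.15 on day 8 (adjusted p = 6.39e-07) and fell by 1.70 ± 0.15 from day 8 to day 12 (adjusted p = 2.96e-09). The 2 arrays of day 8 lay 0.52 apart, the widest gap within a day among the brightest probes of the 7 genes. Day 16 exceeded day 12 by 0.90 (adjusted p = 3.78e-05) but not day 0, at 0.33 ± 0.15 (adjusted p = 0.0689), which passed with the set number as a block (0.33, adjusted p = 0.0446) and with the authors' value table (0.43, adjusted p = 0.0213). Day 20 lay 0.45 below day 0 (adjusted p = 0.00938), a call lost without set 2 of day 20 (-0.39, adjusted p = 0.0646).

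Fdps encodes farnesyl diphosphate synthase, which makes the C15 unit shared by sterols, dolichol and prenylated proteins. Its brightest probe read 11.84 and 11.71 on day 0, 12.59 and 12.48 on day 4, 12.56 and 12.53 on day 8, 10.75 and 10.78 on day 12, 12.76 and 12.71 on day 16, and 10.13 and 10.12 on day 20 (log2 signal, sets 1 and 2). Day 20 was the lowest and day 16 the highest, and neither overlapped any other day. From day 16 to day 20 Fdps fell by 2.61 ± 0.07 (6.09-fold, adjusted p = 4.44e-18), the widest span of any of the 7 brightest probes. The second Fdps probe gave -0.07 ± 0.18 for the same step (adjusted p = 0.776), so that fall rests on the brightest probe. Its rise from day 12 to day 16 was 1.97 ± 0.07 (adjusted p = 3.38e-15), to a level 0.19 above that of day 8 (adjusted p = 0.0293). Days 4 and 8 stood 0.76 and 0.77 above day 0 (adjusted p = 3.48e-09 and 2.81e-09).

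Sqle encodes squalene epoxidase, which starts the sterol-specific arm of the pathway and is one of its rate-limiting enzymes. Its brightest probe read 10.49 and 10.41 on day 0, 11.40 and 11.37 on day 4, 11.15 and 11.28 on day 8, 9.99 and 9.66 on day 12, 11.18 and 11.14 on day 16, and 10.64 and 10.77 on day 20 (log2 signal, sets 1 and 2). Days 4, 8 and 16 lay above days 0 and 20, and day 12 below all. Sqle rose by 0.94 ± 0.09 on day 4 (adjusted p = 6.52e-09), fell by 1.39 ± 0.09 from day 8 to day 12 (adjusted p = 3.33e-11) and rose by 1.34 ± 0.09 to day 16 (adjusted p = 1.53e-10). Against day 0, day 12 was lower by this probe (-0.62, adjusted p = 4.96e-06) but not by the mean of both probes (0.14, adjusted p = 0.206). Day 20 was higher by 0.26 in this probe (limma adjusted p = 0.0143) and by 2.01 ± 0.12 in the second Sqle probe (adjusted p = 2.25e-12). The call of the brightest probe was lost with median centring (0.11, adjusted p = 0.336). The same call was lost when set 2 of day 0 was left out (0.22, adjusted p = 0.101) or set 2 of day 20 (0.19, adjusted p = 0.136).

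Cyp51 encodes lanosterol 14-alpha-demethylase, a cytochrome P450 that removes the first methyl group of lanosterol. Its single probe read 8.08 and 7.81 on day 0, 10.26 and 10.04 on day 4, 10.15 and 10.14 on day 8, 8.17 and 8.25 on day 12, 9.78 and 9.67 on day 16, and 9.61 and 9.54 on day 20 (log2 signal, sets 1 and 2). The arrays of days 4 and 8 were the highest, those of days 16 and 20 came next with no overlap with either, and those of days 0 and 12 were the lowest. Cyp51 rose by 2.20 ± 0.10 on day 4 (4.61-fold, adjusted p = 2.44e-14) and stood as high on day 8 (2.20 ± 0.10, adjusted p = 2.46e-14). It fell by 1.94 ± 0.10 from day 8 to day 12 (adjusted p = 7.26e-13) and rose by 1.52 ± 0.10 to day 16 (adjusted p = 7.93e-11). On day 20 Cyp51 was still 1.63 ± 0.10 above day 0 (adjusted p = 2.28e-12), where the brightest probe of Fdps was 1.64 ± 0.07 below it (adjusted p = 9.64e-15) and Mvd 0.86 ± 0.13 below it (adjusted p = 4.42e-06). Its change from day 16 to day 20 was -0.15 ± 0.10 (adjusted p = 0.185). The higher level on day 12 than on day 0 (0.26, adjusted p = 0.0262) was lost with median centring (0.17, adjusted p = 0.152). It was also lost when set 2 of day 0 was left out (0.13, adjusted p = 0.36) or set 2 of day 12 (0.22, adjusted p = 0.121).

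Insig1 encodes the sterol sensor partner that retains SCAP, and is itself known as a target of SREBP. Its 3 detected probes gave opposite accounts. The brightest (ILMN_2895388) read 9.57 and 9.52 on day 0, 9.42 and 9.13 on day 4, 9.21 and 9.20 on day 8, 9.06 and 9.01 on day 12, 9.34 and 9.32 on day 16, and 9.01 and 9.04 on day 20. It spanned 1.43-fold in all, with day 0 the highest, and no neighbouring pair in the order of its day means differed. ILMN_1245272 read 6.46 and 6.35 on day 0, 8.77 and 8.50 on day 4, 8.69 and 8.62 on day 8, 7.15 and 7.28 on day 12, 8.43 and 8.26 on day 16, and 8.52 and 8.36 on day 20. ILMN_2606693 read 6.16 and 6.05 on day 0, 8.40 and 8.46 on day 4, 8.58 and 8.47 on day 8, 7.13 and 7.41 on day 12, 8.21 and 7.98 on day 16, and 8.14 and 8.28 on day 20. By both of these probes day 0 was the lowest and day 12 came next, below all arrays of days 4, 8, 16 and 20.

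On day 8 against day 0 the brightest Insig1 probe fell by 0.34 ± 0.09 (adjusted p = 0.00243), while ILMN_1245272 rose by 2.25 ± 0.11 and ILMN_2606693 by 2.42 ± 0.12. The mean of the 3 probes rose by 1.44 (adjusted p = 2.18e-09). The direction of Insig1 against day 0 on each of days 4, 8, 12, 16 and 20 thus depended on the probe, and its calls in the counts over the 7 genes rest on the brightest. The fall of that probe on day 4 (-0.27, adjusted p = 0.0139) was lost when set 1 of day 0 was left out (-0.24, adjusted p = 0.0859) or set 2 of day 4 (-0.12, adjusted p = 0.313). From day 12 to day 16 all 3 probes rose, by 0.30, 1.13 and 0.83, though the call of the brightest (adjusted p = 0.0114) was lost when set 2 of day 12 was left out (0.27, adjusted p = 0.0582) or set 1 of day 16 (0.28, adjusted p = 0.0629). From day 8 to day 12 the other 2 fell by 1.44 and 1.25, and the brightest gave -0.17 ± 0.09 (adjusted p = 0.117). From day 16 to day 20 the brightest fell by 0.30 ± 0.09 (limma adjusted p = 0.00526). There the other 2 gave 0.10 ± 0.11 (adjusted p = 0.486) and 0.11 ± 0.12 (adjusted p = 0.441), and the mean of the 3 probes -0.03 (adjusted p = 0.76).

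Sqle and Fdps each had a second detected probe. The second Sqle probe (ILMN_2600348) read 6.15 and 6.22 on day 0, 9.11 and 8.78 on day 4, 9.30 and 9.15 on day 8, 7.17 and 7.01 on day 12, 8.73 and 8.51 on day 16, and 8.19 and 8.20 on day 20. Like the brighter one it fell from day 8 to day 12 (-2.14) and rose from day 12 to day 16 (1.53), but it rose further from day 0, by 3.04 ± 0.12 on day 8 (8.24-fold) against 0.77 ± 0.09, and on day 12 it stood 0.90 above day 0 where the brighter one stood 0.62 below. The second Fdps probe (ILMN_1232741), close to background, read 4.95 and 5.25 on day 0, 5.94 and 5.87 on day 4, 5.89 and 6.11 on day 8, 5.15 and 5.25 on day 12, 5.97 and 5.56 on day 16, and 5.53 and 5.87 on day 20. It rose by 0.90 ± 0.18 on day 8 and fell by 0.80 ± 0.18 to day 12 (adjusted p = 0.000857), as the brighter one did. On day 20 it stood 0.60 ± 0.18 above day 0 (adjusted p = 0.00585), opposite to the brighter probe. Leaving out set 1 of day 0 (0.45, adjusted p = 0.0845) or set 2 of day 20 (0.43, adjusted p = 0.0925) ended that call.

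Srebf2 encodes SREBP-2, the SREBP most tied to cholesterol synthesis. Its brighter probe (ILMN_1223598) read 8.80 and 8.97 on day 0, 8.54 and 8.50 on day 4, 8.28 and 8.51 on day 8, 8.03 and 8.18 on day 12, 8.89 and 8.94 on day 16, and 7.71 and 7.83 on day 20. Days 0 and 16 were the highest, and day 20 lay below every other array. Against day 0 it fell by 0.37 ± 0.10 on day 4 (adjusted p = 0.00346), by 0.49 ± 0.10 on day 8 (adjusted p = 0.000261), by 0.78 ± 0.10 on day 12 (adjusted p = 1.85e-06) and by 1.12 ± 0.10 on day 20 (adjusted p = 3.28e-09). From day 12 to day 16 it rose by 0.81 ± 0.10 (adjusted p = 2.06e-06). Of these, the call on day 4 was lost without set 2 of day 0 (-0.29, adjusted p = 0.0647). Its fall from day 8 to day 12 (-0.29, adjusted p = 0.0226) did not pass in the authors' value table (-0.19, adjusted p = 0.132), nor when set 2 of day 8 was left out (-0.17, adjusted p = 0.271) or set 1 of day 12 (-0.21, adjusted p = 0.164).

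The second Srebf2 probe (ILMN_1234082), annotated to another transcript record, read 7.20 and 7.41 on day 0, 7.03 and 7.18 on day 4, 7.10 and 7.11 on day 8, 6.87 and 7.02 on day 12, 7.55 and 7.61 on day 16, and 7.97 and 8.06 on day 20. Day 20 was its highest day, where it was the lowest of the brighter probe. It rose by 0.71 ± 0.12 on day 20 against day 0 (adjusted p = 2.18e-05), opposite in sign to the brighter probe. Both probes rose from day 12 to day 16, the second by 0.64 ± 0.12 (adjusted p = 0.000254). The mean of the 2 probes gave -0.20 on day 20 (adjusted p = 0.0599), so the lower Srebf2 signal of day 20 rests on the brighter probe.

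**Figure D2:**
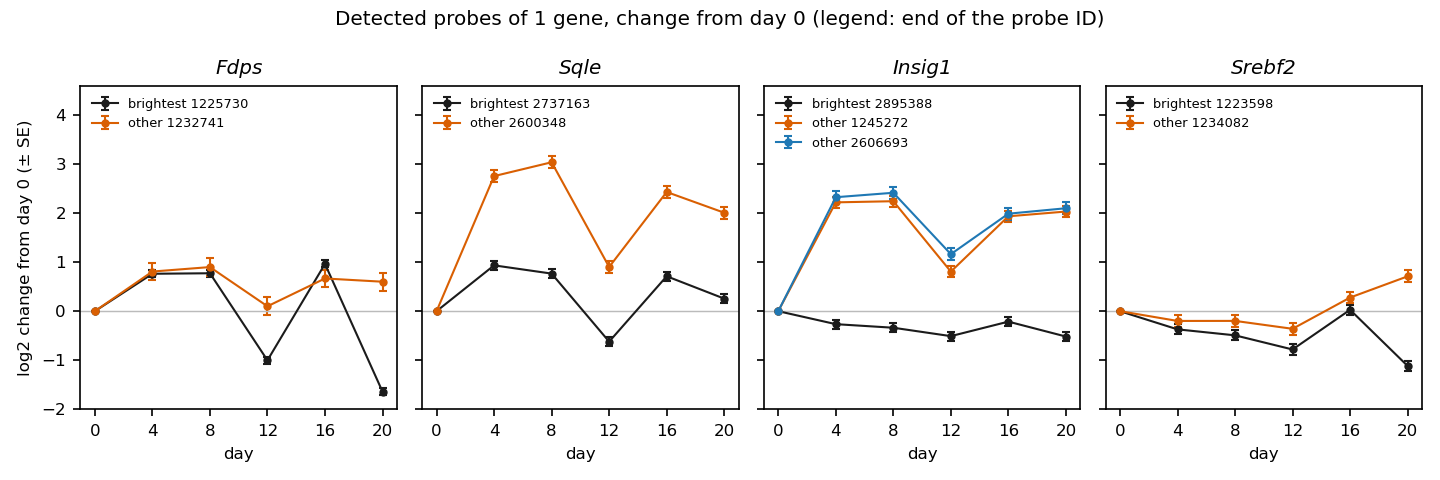
Log2 change from day 0 (y axis, same scale in all panels) against day (x axis) for every detected probe of the 4 genes with more than 1. Points are limma estimates from 2 arrays per day and bars are 1 SE. Both other Insig1 probes rise to 2.25 and 2.42 on day 8 while the brightest lies at -0.34, and the probes of Fdps and of Srebf2 part on day 20.

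Counted over all 12 detected probes, 8 rose and 2 fell on day 4 against day 0 (58.0% of all detected probes were called) and again on day 8 (58.1%). On day 12 there were 4 higher and 7 lower (47.4%), on day 16 7 higher and 0 lower (43.5%), and on day 20 7 higher and 5 lower (64.3%). From day 8 to day 12, 10 of 12 probes fell and 0 rose (46.8% of all detected probes called), and from day 12 to day 16 12 of 12 rose (33.8%). In the latter, the call of the second Fdps probe (0.57, adjusted p = 0.0177) was lost when set 1 of day 12 (0.52, adjusted p = 0.0966) or set 1 of day 16 (0.36, adjusted p = 0.235) was left out. From day 16 to day 20, 7 fell and 1 rose (61.0%), the riser being the second Srebf2 probe. The fall to day 12 and the rise to day 16 therefore had no probe called the other way, whereas the comparisons of days 4, 8, 12 and 20 with day 0 had probes called in both directions. By the pigmentation label 1 of 12 passed (13.3% of all detected probes), the second Srebf2 probe, at -0.58 ± 0.17 (limma adjusted p = 0.0379), a call lost with the set number as a block (adjusted p = 0.0536) and without any 1 of the arrays of days 4, 8 and 20 or set 1 of day 12 (adjusted p = 0.0554 to 0.0825). Opposite calls among the probes of a gene were found in 10.4% of the 4889 genes with several detected probes on day 8, in 13.8% on day 20, and in 3.54% and 2.47% for the changes from day 8 to 12 and from day 12 to 16.

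**Figure D3:**
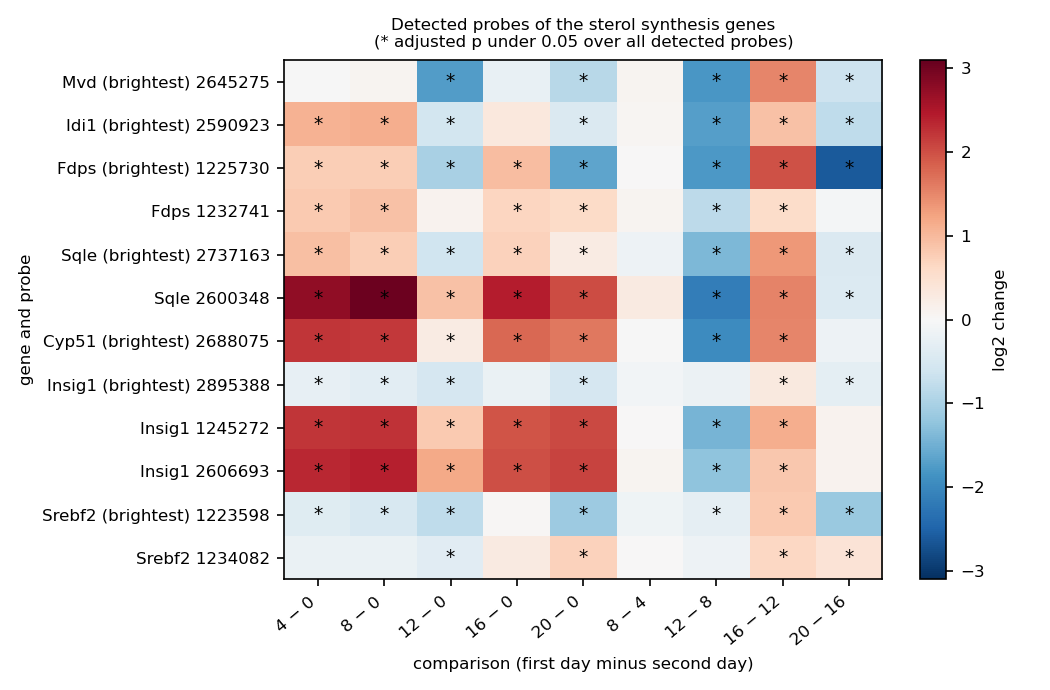
Log2 change of each of the 12 detected probes (y axis) in 9 comparisons of days (x axis, first day minus second). Red is higher and blue lower on the first day, and a star marks an adjusted p under 0.05 over all detected probes. The column for day 12 against day 8 holds 10 lower calls, that for day 16 against day 12 holds 12 higher calls, and that for day 8 against day 4 holds 0.

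Across the 12 arrays, as a description only, since all values share the arrays and their normalisation, the brightest probes of pairs of genes correlated at -0.183 to 0.868. Sqle with Cyp51 stood at 0.868, Insig1 with Srebf2 at 0.84 and Idi1 with Fdps at 0.839. Cyp51 correlated at 0.977 with the second Sqle probe, at 0.971 and 0.938 with the 2 less bright Insig1 probes and at 0.92 with the second Fdps probe, but at -0.183 with the brightest Insig1 probe and at -0.094 with the brighter Srebf2 probe. Within a gene, the 2 less bright Insig1 probes correlated at 0.984 with each other and at -0.38 and -0.487 with the brightest, the Sqle probes at 0.8, the Fdps probes at 0.432 and the Srebf2 probes at -0.233. For a mean profile, the log2 signals of each of the 7 brightest probes were standardized over the 12 arrays and then averaged, so each gene weighed the same. Outside all sterol lists, the 10 genes whose signal followed that mean most closely were Prpf3 (r = 0.9804), Sppl2b (0.967), Dbi (0.9659), Noc4l (0.9654), Trim27 (0.9613), Erh (0.9601), Psmd13 (0.9592), Suds3 (0.9588), Psmb10 (0.9545) and Trmo (0.9518). The 7 genes themselves had 0.5806 (Cyp51) to 0.9282 (Fdps) with that mean, which includes them.

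Of 39 further genes of sterol synthesis, control, uptake, transport and storage, 27 were tested, and the others are not analysed here. Among the enzymes from squalene to cholesterol, 8 of the 9 tested were lower on day 12 than on day 8, where 26.2% of all genes were lower. On that list 5 rose and 0 fell on day 4 against day 0 (median 0.66), 0 rose and 8 fell from day 8 to day 12 (median -1.02), 7 rose and 0 fell from day 12 to day 16 (median 0.71), and 1 rose and 6 fell from day 16 to day 20 (median -0.62). Of all genes 29.5% were higher in the first of these comparisons, 20.7% higher in the rise to day 16 and 35.0% lower in the fall to day 20. Nsdhl, a sterol dehydrogenase that acts with the C4 demethylation enzymes, rose by 2.36 ± 0.13 on day 8 against day 0, fell by 1.97 ± 0.13 to day 12, rose by 1.58 ± 0.13 to day 16 and fell by 1.81 ± 0.13 to day 20. Lss, which closes the ring to lanosterol, rose by 1.10 ± 0.13 on day 8, fell by 2.05 ± 0.13 to day 12 and rose by 1.60 ± 0.13 to day 16. Msmo1, the C4 methyl oxidase, fell by 1.80 ± 0.07 from day 8 to day 12 and rose by 1.57 ± 0.07 to day 16. Dhcr7, which makes cholesterol in the last step, stood 1.02 ± 0.10 below day 0 on day 12. The riser from day 16 to day 20 was also Dhcr7 (0.91 ± 0.10). Sc5d, a sterol desaturase, passed the test in none of the comparisons of days.

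Of the mevalonate arm only Mvk and Pmvk were tested beside the genes above. Mvk, mevalonate kinase, was not detected on days 0, 12 and 20, and was at least 1.62-fold higher on day 8 than on day 0 and at least 1.69-fold lower on day 12 than on day 8. The bound sets the mean of the detected day over the lowest detected level of the arrays of the other day or the probe's own value, whichever was higher. Pmvk, phosphomevalonate kinase, fell on day 8 against day 0 (-0.79), where the enzymes Idi1, Fdps, Sqle and Cyp51 rose.

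Of 7 genes tested that control SREBP, 2 rose and 5 fell on day 20 against day 0 (median -0.81), where 68.0% of all genes changed and 38.7% fell (median -0.11). From day 16 to day 20, 0 rose and 5 fell (median -0.85), where 65.0% of all genes changed and 35.0% fell (median -0.05), so the number called was near the share over all genes. Srebf1, which encodes SREBP-1, fell by 1.55 ± 0.14 between those days, Mbtps1, the site-1 protease that cuts SREBP, by 1.60 ± 0.11, and Faf2, an adaptor known in mammalian cells to aid degradation of INSIG1, by 1.14 ± 0.10. Scap, the SREBP escort, fell by 0.70 there. Insig2, the paralog of Insig1, rose by 1.38 ± 0.07 on day 4 and by 1.29 ± 0.07 on day 8 against day 0. From day 8 to day 12, 0 of the 7 rose and 3 fell (median -0.19), beside 53.4% of all genes called.

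Genes of sterol uptake and transport did not share one direction. Of 8 tested, 1 rose and 5 fell on day 8 against day 0 (median -0.33), and 2 rose and 4 fell from day 16 to day 20 (median -0.19). These counts were near the 63.1% and 65.0% of all genes called in the same comparisons. Lipa, the lysosomal acid lipase that frees cholesterol from lipoprotein esters, ran opposite to the enzymes. It fell by 1.37 ± 0.08 on day 8 against day 0, rose by 1.39 ± 0.08 from day 8 to day 12, fell by 1.10 ± 0.08 to day 16 and rose by 1.04 ± 0.08 to day 20. Stard4, a cholesterol carrier, stood below day 0 by 1.32 ± 0.09 on day 12 and by 1.27 ± 0.09 on day 20. Apoe, which encodes a lipoprotein component and was the 1 gene tested of the efflux and storage list, fell by 2.62 ± 0.11 from day 16 to day 20. Over all 27 genes, 2 rose and 14 fell from day 8 to day 12, beside 53.4% of all genes called (26.2% lower), and 11 rose and 3 fell from day 12 to day 16, beside 40.4% (20.7% higher).

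**Figure D4:**
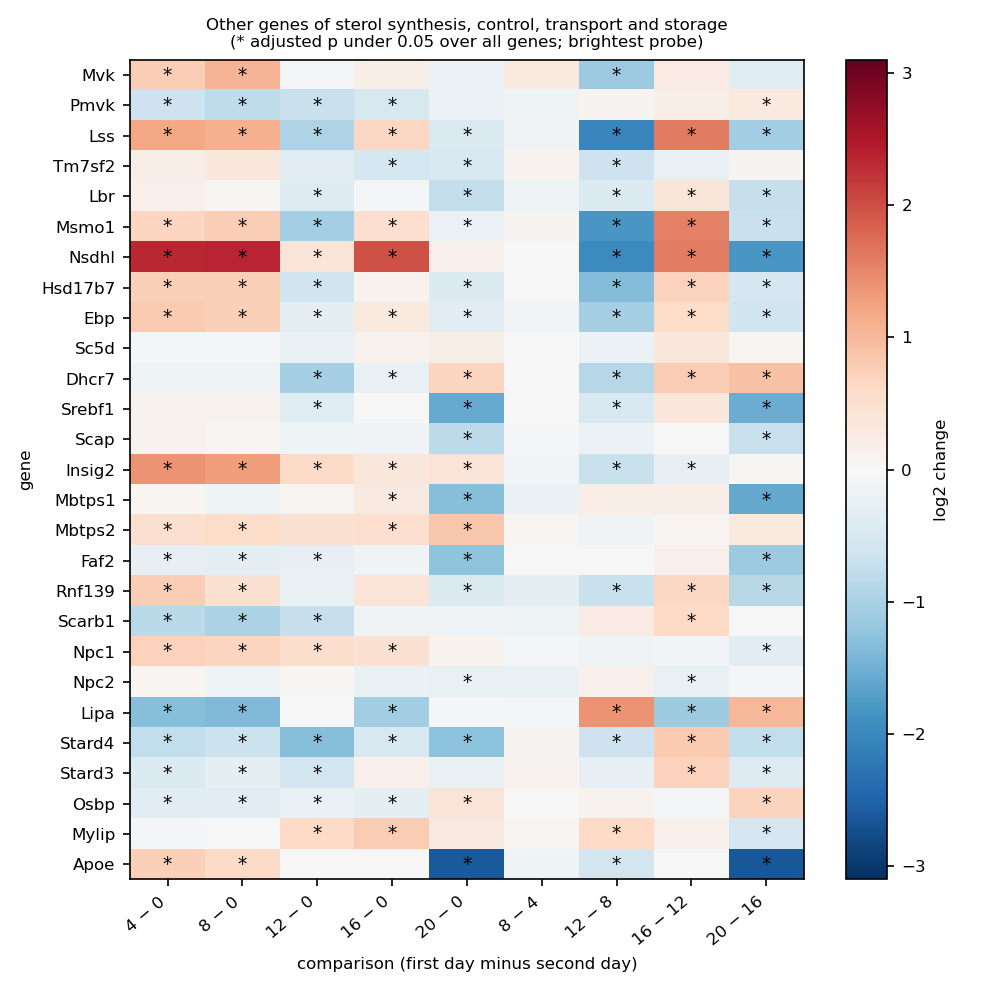
Log2 change of the brightest probe of the 27 further genes (y axis, grouped as mevalonate arm, squalene to cholesterol, SREBP control, uptake and transport, and Apoe) in 9 comparisons of days (x axis, first day minus second). Red is higher and blue lower on the first day, and a star marks an adjusted p under 0.05 over all genes. Enzymes such as Lss (-2.05) and Nsdhl (-1.97) are blue in the column for day 12 against day 8, where Lipa (1.39) is red.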

How the data were processed

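Total RNA of B16 cells was labelled with biotin and hybridised to 12 Illumina arrays, per the labels' protocols. Per the file headers, 45281 probes had a deposited mean intensity on a linear scale together with a detection p-value on every array. The authors also deposited a value table of linear intensity values, in which every column was a linear function of 1 column of signals, as found from the values, so its scale and direction were settled. Its column medians lay between 6.26 and 8.71, and its set numbers were exchanged against the signal table for 6 columns (days 4, 12 and 20). The signal table's set numbers were used. Set numbers mark consecutive cycles per the design text, and the deviations of set 1 from the day means correlated between days at -0.0293 to 0.267 (14 of 15 pairs of days above 0, 8 over 0.1). The bead summary software is not given in the sources used here.

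Signals were background-corrected with limma 3.58.1 in R 4.3.3 (nec, background inferred from detection p-values, offset 16) and quantile normalized. Weak probes depend on that estimated background, and bright probes can understate changes near saturation. By platform annotation, 34885 probes had 1 symbol, 18 had several and 10378 had none. RefSeq changed 0 symbols. The detection filter (p under 0.05, 2 arrays or more) kept 22978 probes, and the brightest per gene left 11470 genes. Changes were tested two-sided across all genes with limma (lmFit, then eBayes with trend), with Benjamini-Hochberg adjustment within each comparison at 0.05. The model held day as a factor over 12 arrays (6 residual degrees of freedom), or 2 pigmentation groups. With the pigmentation groups it had no term for day and counted the 2 arrays of a day as separate replicates. Each probe was tested in the same way among all detected probes. The script was checked on simulated data. The number of arrays limits the precision.

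All probes of the 8 genes are described. Of 5 further sterol lists, genes called with a log2 change of at least 1 could be named (at most 3 per list and comparison), with others given as examples of their list chosen after their values were seen. These are Pmvk, Scap, Sc5d and, from day 16 to day 20, Dhcr7. The genes and lists were chosen with earlier results of these data known. The 10 genes of like pattern are those with the highest Pearson r. Alternatives were no background correction, median centring, stricter and no detection filters, the mean of a gene's probes, the set number as a block, the density label, the value table, no intensity trend and leaving out each array.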

Additional observations from a re-analysis of the deposited data

How the results depend on the processing

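Of 1470 recomputed changes of the 7 genes, 1432 kept a call in the same direction or stayed uncalled. Of the others, 21 lost the call, 11 gained one and 6 changed sign with a call in at least 1 setting. For 1731 recomputed changes of other probes and listed genes the numbers were 1706, 21, 4 and 0. A change called in neither setting counted as kept whatever its sign. An example is Srebf2 on day 16 against day 0, at 0.028 and, with median centring, -0.051. The 6 changes of sign with a call came with the mean of the detected probes in place of the brightest. Against day 0, Insig1 then stood at 1.429 (day 4), 1.442 (day 8), 0.488 (day 12), 1.239 (day 16) and 1.207 (day 20), and Sqle at 0.14 (day 12). With that mean, 1 gene differed by pigmentation label in place of 0 (Srebf2, -0.384, adjusted p = 0.0446). The set number as a replicate block gave 5 genes in place of 3 on day 16 against day 0, adding Idi1 (0.329) and Insig1 (-0.213, adjusted p = 0.0414), and moved no other count of these genes. For the second Srebf2 probe it added a call on day 16 against day 0 (0.279, adjusted p = 0.0475) and ended that by pigmentation label. Leaving out 1 array gave, against day 0, 5 to 6 genes called (day 4), 6 to 7 (day 12), 3 to 4 (day 16) and 5 to 7 (day 20). It gave 5 to 6 from day 8 to day 12 and 6 to 7 from day 12 to day 16. The normalization stayed fixed, and the lone array of a day was assumed to vary as other days do. Over all genes, the count by pigmentation label (1938) fell to between 991 and 1263 without set 1 of day 0 or any array of days 4 and 8. No scaling moved the median of all genes by more than 0.095. Signal near background limits the second Fdps probe and Mvk.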
